A study of Mus musculus with 16 samples.

Results

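Libraries high in Col3a1 were compared with libraries low in Col3a1 in a bulk RNA-seq series of type 1 conventional dendritic cells (cDC1s) that were sorted from YUMM1.7 tumours, a transplantable mouse melanoma. The series holds 16 libraries, and the split uses them all: 8 are high and 8 are low. Col3a1 was measured as counts per 1000000 (CPM), its read count scaled by the library's total count. Within each set of 8 libraries, 1 set from Ikbkb mice and 1 from Irf1 mice, the 4 libraries with the most Col3a1 CPM were called high and the 4 with the least were called low. The groups were thus chosen by the measured Col3a1 level, which is given as a description with no test. No treatment separates high from low libraries, so a difference between them describes genes that vary together with Col3a1 from library to library.

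The genotype labels gave 4 groups of 4 libraries. The Ikbkb-deleted group is labelled IKKbdeltaXCR1 and was set against its floxed group, labelled IKKbFF. The Irf1-deleted group is labelled IRF1deltaXCR1 and was set against its floxed group, labelled IRF1FF. Ikbkb encodes the kinase IKK-beta of the NF-kB pathway, Irf1 encodes an interferon-induced transcription factor, and the deletions are named after Xcr1, a chemokine receptor carried by cDC1s, so that cells without it would keep the gene. The hosts were female, every library came from an engrafted tumour grown to between 200 and 350 mm3, and no other treatment was given. The growth and treatment notes name the Ikbkb mice and not the Irf1 mice, so the genotype label alone places an Irf1 library. Nothing in the labels says that replicates of a group came from different mice, and p-values therefore reflect only how much these libraries vary, which may be technical.

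Col3a1 encodes the alpha chain of type III collagen, a fibrillar collagen of loose connective tissue, vessel walls and wounds. In a tumour its main known sources are fibroblasts and related stromal cells, which also make type I collagen and the proteoglycans, glycoproteins and enzymes that build collagen fibrils. Collagen chains are hydroxylated and folded in the endoplasmic reticulum, trimmed by secreted proteases and cross-linked by lysyl oxidases. Conventional dendritic cells are known for antigen presentation and not for collagen production.

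The promoters of Col3a1, of Col1a2, which encodes a chain of type I collagen, and of Thbs2, which encodes the matricellular protein thrombospondin-2 and was among the genes whose levels followed Col3a1 most closely, are shown to compare their start regions. Each window runs from 250 bases before the RefSeq start site to 50 bases after it in build GRCm38.p6. The Col3a1 window is chr1:45311288-45311587 on the plus strand, the Col1a2 window is chr6:4505368-4505667 on the plus strand and the Thbs2 window is chr17:14694213-14694512 on the minus strand. Capitals mark 2 searched motifs on either strand. The first is CCAAT, a short box near many start sites. The second is TATAAA, which is 1 form of the TATA box. No match of the first overlapped a match of the second.
Col3a1: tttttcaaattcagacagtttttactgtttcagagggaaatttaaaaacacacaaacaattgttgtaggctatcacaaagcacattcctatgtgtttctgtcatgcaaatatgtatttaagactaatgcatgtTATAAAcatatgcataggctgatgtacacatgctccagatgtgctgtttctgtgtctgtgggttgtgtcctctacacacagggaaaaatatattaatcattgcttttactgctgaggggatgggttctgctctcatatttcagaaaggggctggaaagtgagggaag
Col1a2: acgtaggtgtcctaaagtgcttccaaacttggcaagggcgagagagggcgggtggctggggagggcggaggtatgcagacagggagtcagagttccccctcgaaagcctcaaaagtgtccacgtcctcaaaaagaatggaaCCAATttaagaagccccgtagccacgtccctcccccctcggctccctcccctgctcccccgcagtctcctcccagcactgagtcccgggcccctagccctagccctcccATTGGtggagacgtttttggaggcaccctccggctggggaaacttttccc
Thbs2: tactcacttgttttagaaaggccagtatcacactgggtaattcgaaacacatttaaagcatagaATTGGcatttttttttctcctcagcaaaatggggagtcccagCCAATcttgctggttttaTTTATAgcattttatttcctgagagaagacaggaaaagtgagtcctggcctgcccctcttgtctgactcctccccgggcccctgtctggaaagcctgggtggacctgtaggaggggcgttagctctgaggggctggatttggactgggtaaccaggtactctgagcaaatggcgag
The Col3a1 window held TATAAA 1 time, starting 117 bases before the start site, and no CCAAT. The Col1a2 window held CCAAT 2 times, 1 of them 109 bases before the start site, and the Thbs2 window held CCAAT 2 times and TATAAA 1 time. Of 32851 RefSeq windows of the same length, 37.4% held CCAAT and 13.6% held TATAAA on either strand. These matches describe the letters and show no binding. Of the 30 matrix, fibroblast and most associated genes named here, counting Col3a1, 22 had an entry in the promoter table.

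In the Ikbkb set the high libraries were Ikbkb-deleted 4 with 2924 CPM of Col3a1, Ikbkb floxed 1 with 2359, Ikbkb floxed 4 with 2357 and Ikbkb floxed 3 with 2314. The low libraries were Ikbkb floxed 2 with 2137 CPM, Ikbkb-deleted 3 with 1567, Ikbkb-deleted 2 with 1441 and Ikbkb-deleted 1 with 1399. In the Irf1 set the high libraries were Irf1 floxed 3 with 13655 CPM, Irf1 floxed 1 with 10949, Irf1-deleted 2 with 8069 and Irf1-deleted 3 with 7362, and the low ones were Irf1 floxed 2 with 6243, Irf1-deleted 1 with 6188, Irf1 floxed 4 with 4377 and Irf1-deleted 4 with 3530. Col3a1 thus spanned 2.09-fold in the Ikbkb set and 3.87-fold in the Irf1 set. High and low are relative to the set. Even the lowest Irf1 library, at 3530 CPM, had more Col3a1 than the highest Ikbkb library, at 2924 CPM. Just inside and just outside the boundary, the fourth library had 1.08 times the Col3a1 CPM of the fifth in the Ikbkb set and 1.18 times in the Irf1 set. The genotypes were balanced in the Irf1 set, with 2 deleted and 2 floxed libraries in each class. They were not in the Ikbkb set, where the high class held 1 deleted and 3 floxed libraries and the low class 3 deleted and 1 floxed, so class and genotype are partly confounded there. Ranking by CPM rescaled with TMM, the trimmed mean of M values, moved 0 libraries to the other class.

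**Figure D1:**
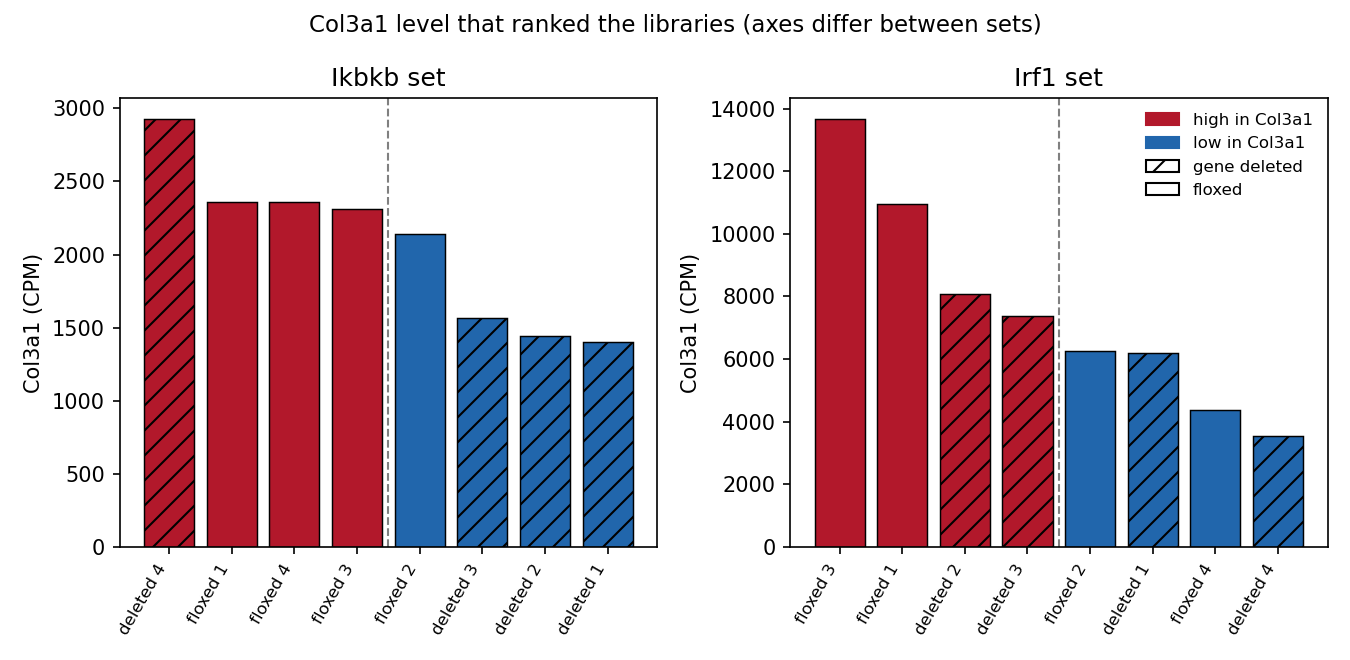
Col3a1 level (CPM, linear axis from 0) in each of the 16 libraries, ordered from highest to lowest within the Ikbkb set (left) and the Irf1 set (right), with high libraries in red, low libraries in blue and deleted genotypes hatched. The step at the dashed boundary is small, 1.08-fold in the Ikbkb set and 1.18-fold in the Irf1 set, and the 2 panels have different axes.

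Total counts averaged 22007830 ± 3303967 in high libraries and 20478033 ± 1763349 in low libraries (SD, n = 8 each; exact permutation test within sets, two-sided, p = 0.26, adjusted over 3 measures 0.505). Genes detected averaged 20184 in high and 19626 in low libraries, with an exact permutation p of 0.418, and mitochondrial reads averaged 1.82% in high and 2.06% in low libraries, with an exact permutation p of 0.505, both with an adjusted p of 0.505. Apart from the Col3a1 levels above, every CPM value is TMM-rescaled. Ranges, means and SDs of CPM over all 8 high or all 8 low libraries pool both sets. They therefore include any difference in level between the sets, which the fit takes out by its block. Of the labelled cell type, all 22 cDC1 markers passed the filter on low counts, which does not measure purity. In the Irf1 set summed cDC1 markers were 1134 to 2412 CPM in high and 2442 to 4968 CPM in low libraries. There macrophage and monocyte markers were 7019 to 11730 and 6222 to 18370 CPM, and fibroblast markers 2768 to 3560 and 1893 to 2640 CPM. In the Ikbkb set cDC1 markers were 1429 to 11300 and 1890 to 11630 CPM. Macrophage and monocyte markers were 9298 to 11890 and 4151 to 14420 CPM there. The XC chemokine receptor gene Xcr1 lay between 12.1 and 213 CPM in high libraries and between 43.9 and 318 CPM in low libraries. The dead-cell receptor gene Clec9a lay between 0.602 and 67.5 CPM in high libraries and between 5.67 and 50.6 CPM in low libraries. Ikbkb stood at 28.5 to 46.2 CPM in Ikbkb-deleted and at 44.5 to 121 CPM in Ikbkb floxed libraries, and Irf1 at 98.5 to 299 CPM in Irf1-deleted and at 141 to 268 CPM in Irf1 floxed libraries, so neither targeted gene separated its genotypes by its whole-gene count. Which exons were removed is not given in the sources used here, so this is no check of the labels.

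A pair of libraries stood apart from the rest of their set, and they fell on opposite sides of the split. Summed cDC1 markers came to 11300 CPM in Ikbkb floxed 3, which is high in Col3a1, where the other 3 high libraries of the set had 1429 to 2717. They came to 11630 CPM in Ikbkb-deleted 1, which is low in Col3a1, where the other 3 low libraries had 1890 to 3545. Ikbkb floxed 3 also had 820 CPM of skeletal muscle markers, against 94.3 to 124 CPM in the other high libraries of its set. In the Irf1 set, Irf1-deleted 3, a high library, had 1056 CPM of keratinocyte markers, against 102 to 144 CPM in the other high libraries. Its keratin gene Krt14, made by basal skin cells, stood at 571 CPM, and Irf1-deleted 1, a low library, had 46.6 CPM, while the other 14 libraries had at most 1.71. Ikbkb-set values of the cDC1, MHC class II, T and NK, B cell, mature DC and interferon lists are therefore given also without Ikbkb floxed 3.

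Which genes vary with Col3a1 was then asked across all 16039 genes that passed the filter, leaving out Col3a1, with the set as a block. The genes with the smallest p-values on the high side included matrix genes, but none passed. edgeR's quasi-likelihood test with Benjamini-Hochberg adjustment called 0 genes at an adjusted p under 0.05, 0% of those tested, and the smallest adjusted p was 0.328. At an unadjusted p under 0.05 there were 822 genes, 651 with a higher mean in high libraries and 171 with a lower mean, where 802 would pass that threshold with no gene differing. DESeq2 called 23 genes and limma's voom test 1 gene on the same split. Over all genes the median log2 fold change of high over low libraries was 0.01, and 51.5% of genes were above 0.

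Of genes whose high and low libraries did not overlap in either set, 10 were higher in high libraries (0.0623% of genes tested) and 2 were lower (0.0125%). The 10 were Fbln1, Creb3l1, Tnks1bp1, Cd248, Pcdhb8, Dgcr8, B3gnt3, Mad1l1, Tsku and Podxl2. The 2 were Acsl1 and the unannotated transcript E330020D12Rik. These names were read off after the values were seen.

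Fbln1 encodes fibulin-1, a secreted glycoprotein of elastic fibres and basement membranes, and lies at chr15:85205949-85286535 on the plus strand. It was the matrix gene with the smallest p. In the Ikbkb set it stood at 9.76, 25.6, 12.3 and 18.1 CPM in the high libraries and at 5.42, 1.38, 9.72 and 5.77 CPM in the low ones. Among Irf1 libraries it stood at 74.0, 78.9, 50.8 and 38.8 CPM in the high libraries and at 22.02, 25.8, 16.8 and 21.1 CPM in the low ones. The classes did not overlap in either set, although in the Ikbkb set the lowest high library and the highest low library nearly met. The log2 fold change of high over low was 1.53 (SE 0.30, edgeR adjusted p 0.328). DESeq2 gave 1.54 with an adjusted p of 0.00185.

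Sulf1, at chr1:12692277-12861192 on the plus strand, encodes an extracellular sulfatase that trims heparan sulfate. It had 38.8, 27.6, 34.5 and 15.2 CPM in the high libraries of the Ikbkb set, against 13.2, 7.58, 21.2 and 17.8 CPM in its low ones. For the Irf1 set it had 179, 151, 96.1 and 93.3 CPM in the high libraries and 44.8, 77.5, 53.3 and 40.1 CPM in the low ones. The classes overlapped in the Ikbkb set through Ikbkb floxed 3 and did not overlap in the Irf1 set. The log2 fold change was 1.11 ± 0.24 (SE; adjusted p 0.512 in edgeR).

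The other 3 genes of smallest p on the high side are intracellular. Bag3, a co-chaperone that works with HSP70 proteins, averaged 74.6 ± 21.7 CPM in high and 50.2 ± 13.5 CPM in low libraries (SD, n = 8 each), a log2 fold change of 0.57. Smarca2, an ATPase of the SWI/SNF chromatin remodelling complex, averaged 75.1 ± 23.0 CPM in high and 46.3 ± 21.3 CPM in low libraries (SD, n = 8 each), a log2 fold change of 0.77. Itsn1, an endocytic scaffold, averaged 39.1 ± 22.7 CPM in high and 20.7 ± 17.1 CPM in low libraries (SD, n = 8 each), a log2 fold change of 1.19. These SDs span both sets, and the edgeR adjusted p was 0.512 for each.

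On the low side the smallest p-values belonged to Acsl1, Lpcat2, Itpripl1, Morc2a and Slc8a1, each with an edgeR adjusted p of 0.753. Acsl1, an acyl-CoA synthetase that activates long-chain fatty acids, had 14.3, 10.3, 18.7 and 18.9 CPM in the high libraries of the Ikbkb set, against 24.4, 20.8, 27.5 and 26.7 CPM in its low ones. Within the Irf1 set it had 18.0, 18.3, 14.5 and 15.8 CPM in the high libraries and 21.9, 20.7, 19.3 and 23.2 CPM in the low ones. Its classes did not overlap in either set, and its log2 fold change was -0.52 (SE 0.15). Lpcat2, an enzyme of phospholipid remodelling and platelet-activating factor synthesis in myeloid cells, averaged 68.4 ± 30.7 CPM in high and 108 ± 43.7 CPM in low libraries (SD, n = 8 each), a log2 fold change of -0.71. Slc8a1, a sodium-calcium exchanger, averaged 6.49 ± 3.93 CPM in high and 17.5 ± 9.04 CPM in low libraries (SD, n = 8 each), a log2 fold change of -1.43. The log2 fold change of Itpripl1 was -0.76, and that of Morc2a, a chromatin-silencing ATPase, was -0.49.

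**Figure D2:**
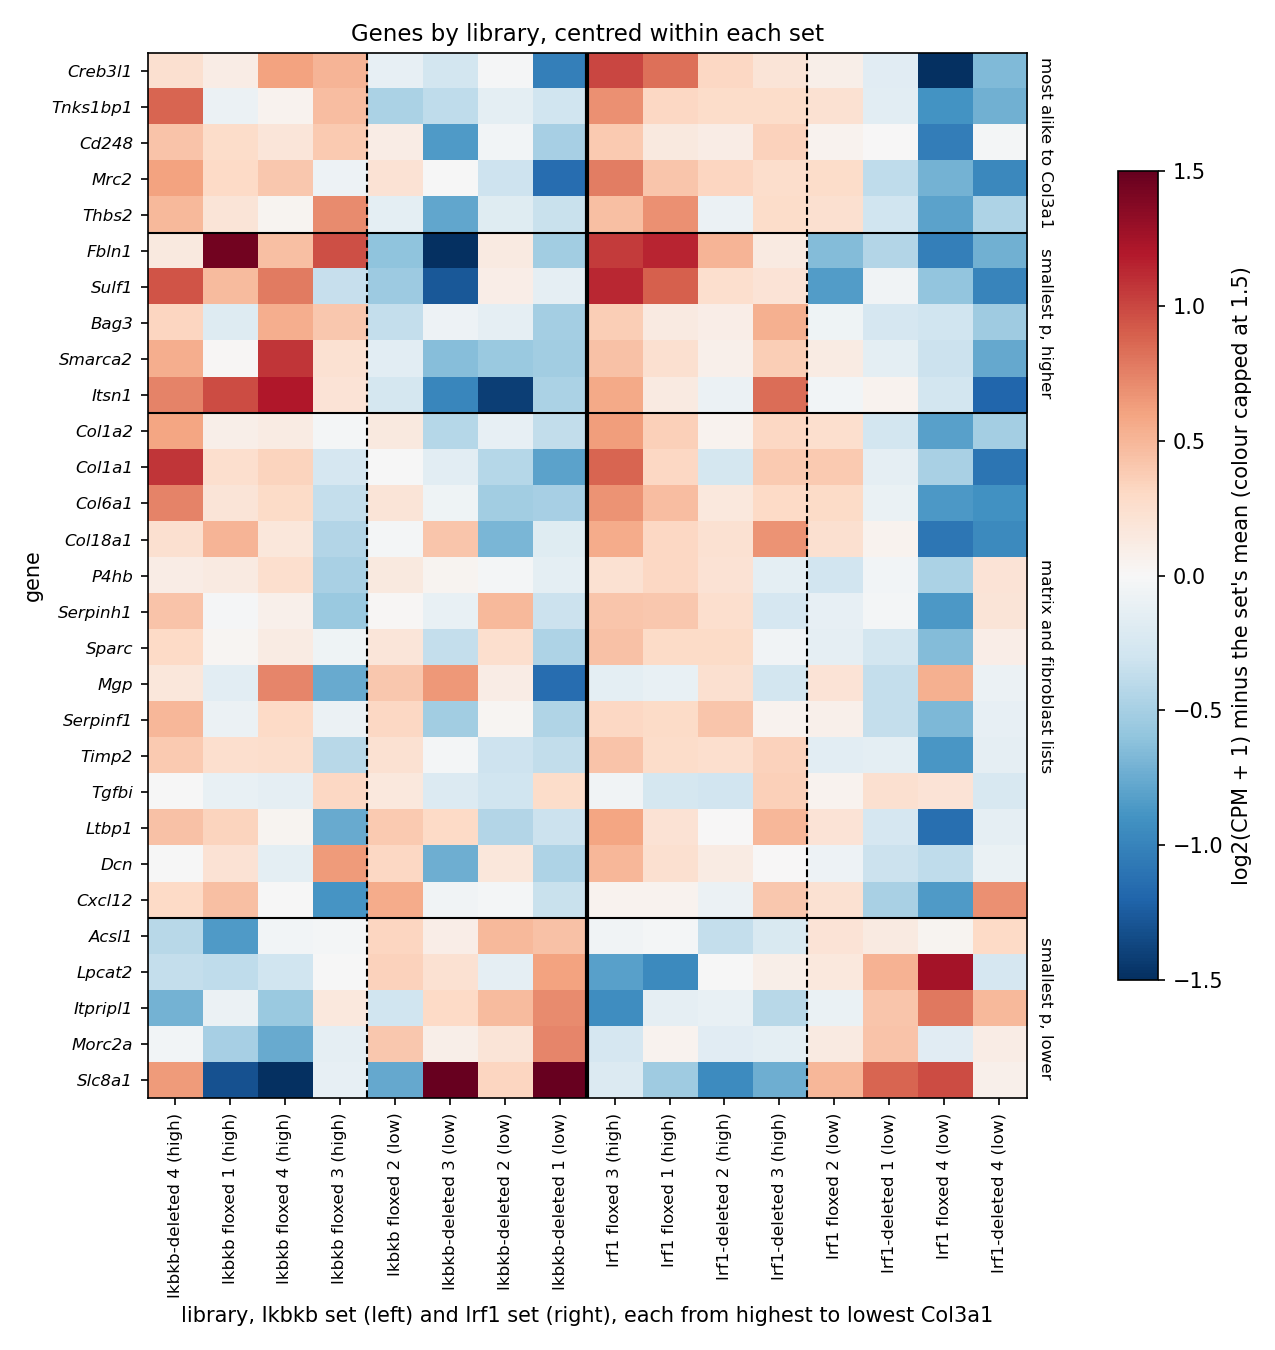
Level of each named gene (rows) in each library (columns, highest to lowest Col3a1 within each set), as log2(CPM + 1) minus the gene's mean in the set, with the colour capped at 1.5. Dashed lines part high libraries on the left from low libraries on the right in each set. The genes most alike to Col3a1 and those of smallest p were chosen by these values, so the colours of their blocks follow from that choice. The matrix and fibroblast block, taken by list and level, is mostly red left of the dashed lines, with exceptions such as Ikbkb floxed 3 in the collagen rows. No row passed the adjusted threshold in edgeR.

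The genes whose levels followed Col3a1 most closely over the 16 libraries, by Spearman's correlation of log2 CPM centred within each set among 9471 genes of sufficient level, were Creb3l1, Tnks1bp1, Cd248, Mrc2 and Thbs2. The correlation describes libraries that share their sets and their depth, and the closest matches of so many genes are high by choice. Creb3l1 had the highest rho, 0.91. It encodes a membrane-bound transcription factor of the endoplasmic reticulum that is known to act on collagen genes in bone, and lies at chr2:91982328-92024502 on the minus strand. It had 7.81, 7.03, 10.3 and 9.61 CPM in the high libraries of the Ikbkb set, against 5.83, 5.14, 6.34 and 2.68 CPM in its low ones. Among Irf1 libraries it had 42.2, 37.3, 25.8 and 23.8 CPM in the high libraries and 21.97, 18.2, 6.18 and 12.7 CPM in the low ones. The classes did not overlap in either set, as for 0.0623% of genes tested on the high side.

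Cd248 encodes endosialin, a surface glycoprotein of fibroblasts and pericytes, and had a rho of 0.86. It stood at 236, 212, 199 and 230.3 CPM in the high libraries of the Ikbkb set, against 189, 96.3, 169.6 and 124 CPM in its low ones. For the Irf1 set it stood at 395, 334, 326 and 383 CPM in the high libraries and at 311, 302, 146 and 295 CPM in the low ones. High and low libraries again did not overlap, with the lowest value of the Irf1 set in Irf1 floxed 4. Because Creb3l1 and Cd248 were picked for following Col3a1, which also set the classes, this parting adds no support. Mrc2, the endocytic collagen receptor also called Endo180, had a rho of 0.85 and averaged 170.4 ± 92.0 CPM in high and 101 ± 59.3 CPM in low libraries (SD, n = 8 each). Thbs2, at the same rho, averaged 229.6 ± 101 CPM in high and 144 ± 73.1 CPM in low libraries (SD, n = 8 each). Tnks1bp1, a tankyrase-binding protein, had a rho of 0.87 and averaged 40.1 ± 17.8 CPM in high and 24.2 ± 12.7 CPM in low libraries (SD, n = 8 each). None of the 5 passed in edgeR, with adjusted p between 0.537 and 0.755.

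Fibrillar collagens other than Col3a1 were 8 of 10 listed genes after the filter. None was called by edgeR, 7 had a log2 fold change above 0, and their median was 0.48 against 0.01 over all genes. Col1a2, chr6:4504814-4541544 on the plus strand, had 2648, 1875, 1918 and 1725 CPM in the high libraries of the Ikbkb set, against 1954, 1311, 1617 and 1361 CPM in its low ones. Within the Irf1 set it had 6436, 5326, 4322 and 5182 CPM in the high libraries and 4954, 3433, 2357 and 2927 CPM in the low ones. In both sets the library just below the boundary, floxed 2, reached into the high range and the other 3 low libraries lay under all high ones. The log2 fold change of Col1a2 was 0.51 ± 0.16 (SE; adjusted p 0.753 in edgeR). Its partner chain Col1a1 gave 0.68 ± 0.23 (SE; adjusted p 0.815 in edgeR), with 1582, 895, 945 and 630 CPM in the high libraries of the Ikbkb set, against 748, 674, 561 and 430 CPM in its low ones. The type V chains, which regulate fibril diameter, had log2 fold changes of 0.53 for Col5a1 and 0.61 for Col5a2. Col27a1, a cartilage collagen, differed least in mean, at 6.85 ± 4.27 CPM in high and 8.16 ± 7.64 CPM in low libraries (SD, n = 8 each).

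Of the other collagens, 21 of 33 listed genes passed the filter, 19 had a log2 fold change above 0 and the median was 0.51. Type VI collagen, a beaded filament of the pericellular matrix, had 3 well-measured chains: Col6a1 with a log2 fold change of 0.59, Col6a2 with 0.61 and Col6a3 with 0.58. Col6a1 averaged 1123 ± 673 CPM in high and 714 ± 458 CPM in low libraries (SD, n = 8 each; edgeR adjusted p 0.815). Col18a1, a basement membrane collagen, averaged 886 ± 526 CPM in high and 574 ± 340 CPM in low libraries (SD, n = 8 each), a log2 fold change of 0.50. In the Ikbkb set its high and low libraries overlapped almost fully, at 436, 526, 417 and 272 CPM in high and 363, 493, 230 and 327 CPM in low libraries. The 2 members below 0 were Col6a4 and Col25a1.

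Genes that modify, trim and cross-link collagen were 29 of 30 listed genes after the filter, and all 29 had a log2 fold change above 0, with a median of 0.32. In the Ikbkb set 21 of 29 were above 0, and in the Irf1 set 28 of 29. The 2 of highest level differed little. P4hb, a subunit of prolyl 4-hydroxylase, averaged 2513 ± 565 CPM in high and 2295 ± 626 CPM in low libraries, and Serpinh1, the collagen chaperone HSP47, averaged 2095 ± 460 CPM in high and 1875 ± 556 CPM in low libraries (SD, n = 8 each). These SDs span both sets. The log2 fold changes of P4hb and Serpinh1 were 0.16 (SE 0.13) and 0.18 (SE 0.18), each with an edgeR adjusted p of 0.983. Without Irf1 floxed 4 the log2 fold changes were 0.10 and 0.08, and Serpinh1 stood at -0.03 within the Ikbkb set. Lox, which cross-links collagen and elastin, had a log2 fold change of 1.39 ± 0.50 (SE; adjusted p 0.867 in edgeR). Its values of 323 and 188 CPM in Irf1 floxed 3 and Irf1 floxed 1 stood far above the 26.8 to 59.0 CPM of the other Irf1 libraries. Bmp1, the protease that removes the procollagen C-propeptide, had a log2 fold change of 0.71 ± 0.16 (SE; adjusted p 0.512 in edgeR), and DESeq2 called it.

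The non-collagen matrix list had the most members at an unadjusted p under 0.05. All 46 genes passed the filter, 43 had a log2 fold change above 0, and the median was 0.53. At an unadjusted p under 0.05 there were 25 of 46 on the high side and 0 on the low side, while edgeR called none after adjustment. Over all 16039 genes tested there were 651 on the high side and 171 on the low side. The list was chosen with earlier results of these data known. Fbln1 led, and Fbln2, its relative, followed with a log2 fold change of 1.53 ± 0.40 (SE; adjusted p 0.669 in edgeR). Postn, or periostin, a matricellular protein of activated fibroblasts, had 764, 637, 658 and 381 CPM in the high libraries of the Ikbkb set, against 678, 404, 320.1 and 383 CPM in its low ones. Among Irf1 libraries it had 3969, 3384, 2782 and 2778 CPM in the high libraries and 1949.6, 1621, 1383 and 1180 CPM in the low ones. Its classes parted in the Irf1 set and overlapped in the Ikbkb set. Its log2 fold change was 0.76 ± 0.19 (SE; adjusted p 0.648 in edgeR). Sparc, an abundant collagen-binding glycoprotein, averaged 4316 ± 1113 CPM in high and 3416 ± 826 CPM in low libraries, a log2 fold change of 0.31, while Mgp, matrix Gla protein, averaged 3122 ± 997 CPM in high and 3407 ± 1306 CPM in low libraries, a log2 fold change of -0.11 (SD, n = 8 each). Mgp varied widely inside each class, and its classes overlapped in both sets.

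Among matrix proteases and their inhibitors, 26 of 27 listed genes passed the filter, 22 had a log2 fold change above 0 and the median was 0.46. Mmp2, or gelatinase A, had 719, 464, 496 and 372 CPM in the high libraries of the Ikbkb set, against 479, 309, 273 and 328 CPM in its low ones. For the Irf1 set it had 1774, 1535, 1539 and 1544 CPM in the high libraries and 1256, 863, 613 and 710 CPM in the low ones. Its log2 fold change was 0.73 ± 0.17 (SE; adjusted p 0.537 in edgeR), and the classes parted in the Irf1 set. Mmp9, Mmp3 and Adamts1 had log2 fold changes of 0.67, 0.65 and 0.72. The inhibitor gene Timp2 gave 0.44, and Serpinf1, which encodes pigment epithelium-derived factor, gave 0.41. Timp1, another inhibitor, averaged 324.7 ± 80.2 CPM in high and 320.2 ± 152 CPM in low libraries, and the macrophage elastase Mmp12 averaged 11.8 ± 8.34 CPM in high and 19.9 ± 17.0 CPM in low libraries (SD, n = 8 each). The single genes Bmp1, Lox, Postn, Mmp2 and the others given by value outside the rule for named genes were chosen after their values were seen.

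The TGF-beta pathway, a known inducer of collagen transcription in fibroblasts, was covered by 23 of 23 listed genes. Of these, 20 had a log2 fold change above 0, the median was 0.32 and edgeR called none. The latent TGF-beta binding proteins, which hold the ligand in matrix, gave 0.82 for Ltbp3, 0.80 for Ltbp4 and 0.32 for Ltbp1, which was 0.21 without Irf1 floxed 4. The receptor Tgfbr2 gave 0.45. The ligand Tgfb1 averaged 55.5 ± 17.8 CPM in high and 53.9 ± 14.98 CPM in low libraries, and the receptor Tgfbr1 averaged 73.5 ± 11.1 CPM in high and 74.7 ± 15.3 CPM in low libraries (SD, n = 8 each). Tgfbi, a TGF-beta-induced matrix protein, averaged 670 ± 136 CPM in high and 695 ± 143 CPM in low libraries (SD, n = 8 each), a log2 fold change of -0.05.

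Fibroblast markers, 22 tested of 23, had 21 members above 0, a median log2 fold change of 0.47 and none called by edgeR. Their summed level lay between 1709 and 1941 CPM in high and between 1237 and 2106 CPM in low libraries of the Ikbkb set, and between 2768 and 3560 CPM in high and between 1893 and 2640 CPM in low libraries of the Irf1 set. The Irf1 ranges did not overlap and the Ikbkb ranges did, through Ikbkb floxed 2. Dcn, or decorin, a collagen-binding proteoglycan, averaged 615 ± 145 CPM in high and 469 ± 111 CPM in low libraries (SD, n = 8 each), a log2 fold change of 0.38. Cxcl12, a stromal chemokine, averaged 348 ± 87.1 CPM in high and 339 ± 120 CPM in low libraries (SD, n = 8 each), a log2 fold change of 0.04 whose sign turned in several alternatives. Pdgfra, a growth factor receptor of fibroblasts, averaged 273 ± 122 CPM in high and 226 ± 98.1 CPM in low libraries (SD, n = 8 each). The markers of activated tumour fibroblasts Fap and Lrrc15 gave log2 fold changes of 0.67 and 0.69. In bulk samples, fewer cells of a type and less RNA per cell cannot be told apart.

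Markers of other stromal cells had medians near 0. Of 12 mural cell markers 6 had a log2 fold change above 0 in the Ikbkb set (median -0.08) and 7 in the Irf1 set (median 0.17). Of 16 endothelial markers 7 were above 0 in each set, with medians of -0.13 in the Ikbkb set and -0.09 in the Irf1 set. Leaving out 1 library turned the sign of all 4 medians, which ran from -0.26 to 0.37 and from -0.16 to 0.25 for mural markers and from -0.37 to 0.25 and from -0.26 to 0.06 for endothelial markers, Ikbkb set first. Acta2, or smooth muscle actin, had 569.5, 223, 261 and 157 CPM in the high libraries of the Ikbkb set, against 274, 188, 337 and 200 CPM in its low ones. Within the Irf1 set it had 253, 335, 297 and 348 CPM in the high libraries and 469, 175, 248 and 461 CPM in the low ones. Both ranges overlapped widely. Of the 16 melanocyte and melanoma markers 7 passed the filter. The pigment gene Pmel stood between 0 and 3.45 CPM in high and between 0 and 2.26 CPM in low libraries, and Pax3, a transcription factor of melanocyte precursors, averaged 57.1 ± 21.4 CPM in high and 48.3 ± 22.1 CPM in low libraries (SD, n = 8 each). The part of any of these cells in the matrix result was not tested.

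**Figure D3:**
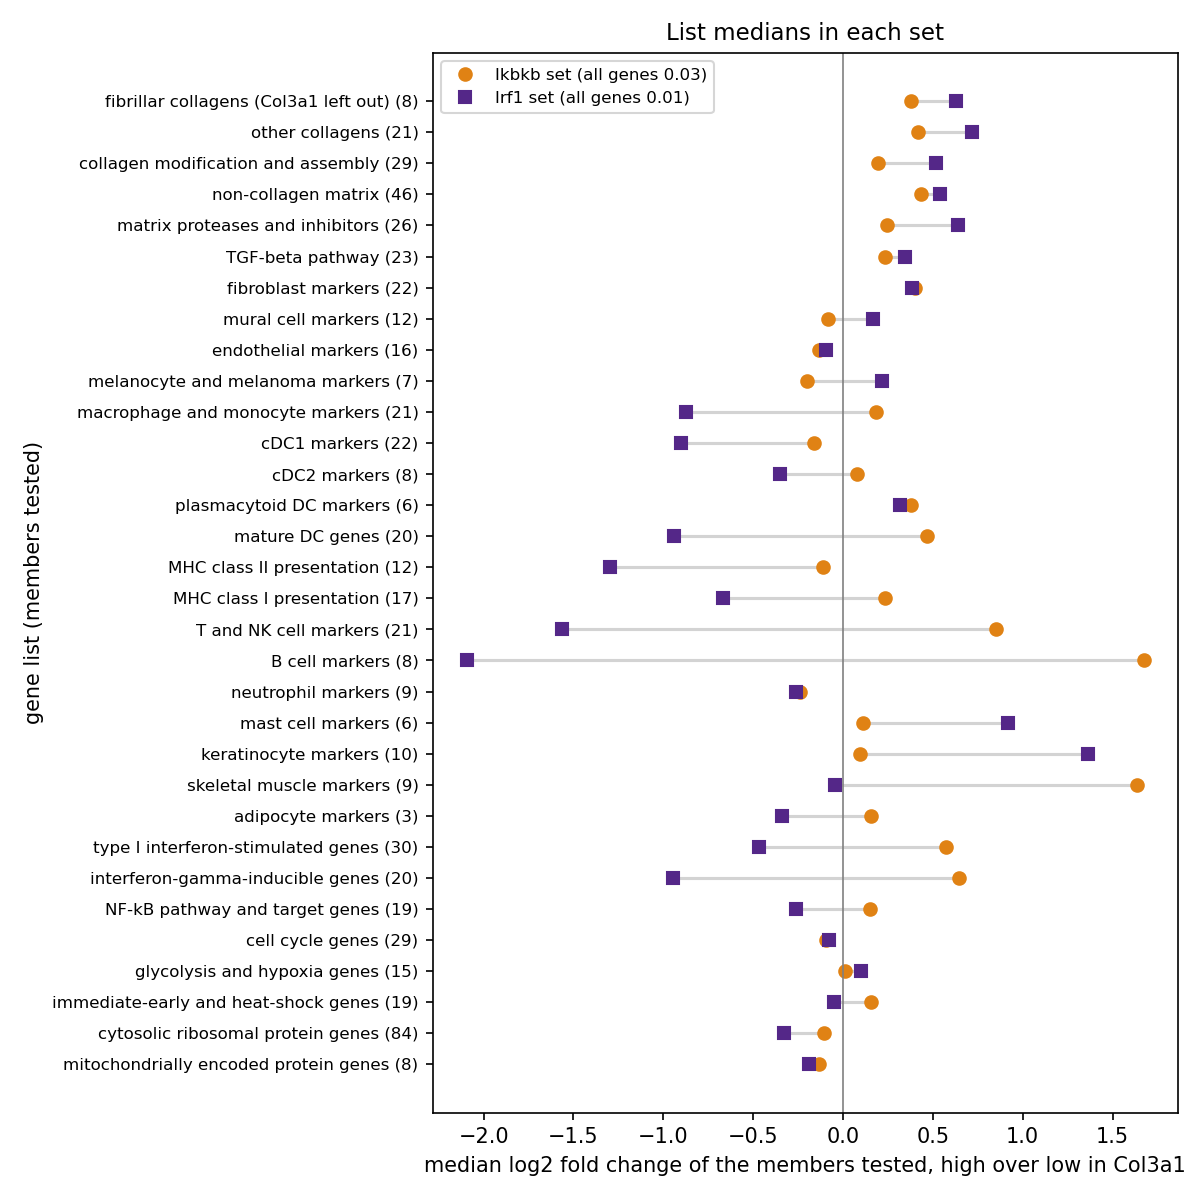
Median log2 fold change (high over low in Col3a1) of the members tested in each of 32 gene lists, within the Ikbkb set (circles) and within the Irf1 set (squares), with the number of members tested in brackets. The collagen, matrix, TGF-beta and fibroblast lists lie above 0 in both sets, while several immune lists lie on opposite sides of 0, and the medians over all genes are 0.03 and 0.01. Without Ikbkb floxed 3 the Ikbkb medians of mature DC genes and type I interferon-stimulated genes fell below 0.

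The tests within each set came from 1 fit of all 16 libraries, which shared an estimate of the spread. In the Ikbkb set edgeR called 0 genes, with 817 at an unadjusted p under 0.05 and a smallest adjusted p of 0.434. In the Irf1 set it called 0 genes, with 849 at that threshold and a smallest adjusted p of 0.689. DESeq2 called 66 and 42 genes, and limma's voom test called 0 and 47. When each set was fitted alone, edgeR again called 0 genes in each. The Ikbkb set alone had 287 genes at an unadjusted p under 0.05 (smallest adjusted p 0.759), and the Irf1 set alone had 1294 (smallest adjusted p 0.264). The test of the difference between the sets also called 0 genes in edgeR, with 748 at an unadjusted p under 0.05, and 18 in DESeq2. Several immune lists stood on opposite sides of 0 in the 2 sets, and the values below describe this without a test of any list.

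With both sets together, 0 of 22 cDC1 markers (median log2 fold change -0.58) and 0 of 12 MHC class II genes (median -0.71) were above 0. Genes of cDC1s and of MHC class II presentation had lower means in high libraries of the Irf1 set. Of 22 cDC1 markers none had a log2 fold change above 0 there, with a median of -0.90. Summed cDC1 markers were 1134, 2412, 1178 and 2294 CPM in the high libraries of the Irf1 set and 3234, 4968, 2545 and 2442 CPM in the low ones, and the ranges lay side by side without overlap. Irf8, the transcription factor that sets cDC1 identity, had 163, 405, 178 and 357 CPM in the high libraries and 585, 885, 526 and 436 CPM in the low ones. Xcr1 had 12.1, 65.8, 14.7 and 34.3 CPM in the high libraries and 121, 196, 61.8 and 43.9 CPM in the low ones, which overlap. MHC class II genes had none of 12 above 0 and a median of -1.30, with sums of 4163, 9313, 6005 and 11370 CPM in the high libraries and 15260, 21980, 23720 and 13100 CPM in the low ones. Cd74, the invariant chain of MHC class II, stood at 1671 to 4594 CPM in high and at 4565 to 9273 CPM in low libraries of that set, ranges that just meet. No member passed the adjusted threshold in edgeR.

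In the Ikbkb set the same lists showed little difference with all libraries, and their medians depended on which library was kept. Of 22 cDC1 markers 8 were above 0, with a median log2 fold change of -0.16, and of 12 MHC class II genes 3 were above 0, with a median of -0.11. Without Ikbkb floxed 3 the median was -1.41 for cDC1 markers, with 1 of 22 above 0, and -1.18 for MHC class II genes, with 0 of 12 above 0. Without ranks 4 and 5 of each set, which include Ikbkb floxed 3, the medians were -1.67 and -1.45. Then 0 of 22 and 0 of 12 were above 0. Without Ikbkb-deleted 1 the cDC1 median was 0.79 and the MHC class II median 0.60, so these medians changed size or sign with each of the cDC1-rich libraries. Irf8 itself had 394, 544, 277 and 2508 CPM in the high libraries of the Ikbkb set, against 375, 379, 743 and 2266 CPM in its low ones.

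T and NK cell markers were above 0 in all 21 tested members in the Ikbkb set, with a median log2 fold change of 0.85, and in none of 21 in the Irf1 set, with a median of -1.57. Summed, they were 312, 397, 604 and 2467 CPM in the high libraries of the Ikbkb set, against 432, 365, 739 and 492 CPM in its low ones. A single library, Ikbkb floxed 3, stands above the rest, and without it 11 of 21 were above 0 with a median of 0.01. In the Irf1 set the sums were 124, 94.8, 132 and 156 CPM in the high libraries and 344, 337, 912 and 117 CPM in the low ones, with Irf1-deleted 4 inside the high range. Cd3e, a chain of the T cell receptor complex, reached 85.8 CPM in Ikbkb floxed 3 and 56.2 CPM in Irf1 floxed 4. Without Irf1 floxed 4 the Irf1 median was -0.95. The genotype block, which fits each genotype's mean, left 18 of 21 above 0 in the Ikbkb set with a median of 0.37.

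The same sign pattern held for 8 of 8 B cell markers in the Ikbkb set (median 1.67) and 1 of 8 in the Irf1 set (median -2.09). Without Ikbkb floxed 3 the Ikbkb count was 6 of 8 with a median of 0.70, without Ikbkb-deleted 3 the Ikbkb median was 2.54, and without Irf1-deleted 4 the Irf1 median was -0.98. Igkc, the immunoglobulin kappa constant region, had the smallest p in the test of the difference between sets, unadjusted 0.000125 and adjusted 1 in edgeR. It had 41.0, 46.8, 165 and 624 CPM in the high libraries of the Ikbkb set, against 4.31, 41.0, 7.86 and 4.62 CPM in its low ones. Among Irf1 libraries it had 0.281, 0.688, 1.19 and 0.888 CPM in the high libraries and 3.07, 2.24, 41.1 and 12.9 CPM in the low ones. The classes did not overlap in either set and ran in opposite directions, with log2 fold changes of 3.92 in the Ikbkb set and -4.27 in the Irf1 set. Without Ikbkb floxed 3 the first was 2.54, and without Irf1 floxed 4 the second was -2.99. The highest value of each set came from a single library, Ikbkb floxed 3 and Irf1 floxed 4. Ttyh2, a membrane protein of the tweety family, had the next smallest p in that test, with log2 fold changes of -0.51 in the Ikbkb set and 0.66 in the Irf1 set (adjusted p 1 in edgeR).

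**Figure D4:**
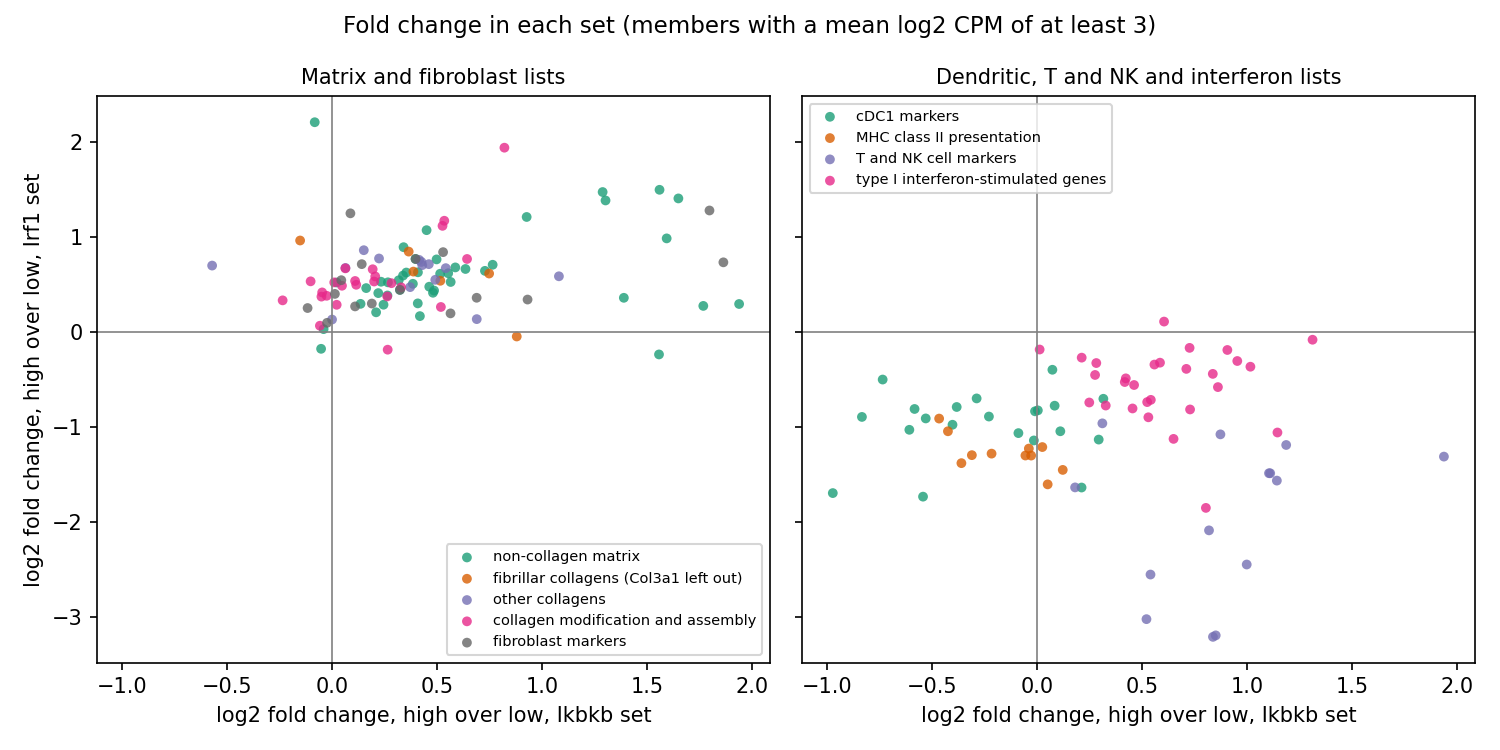
Log2 fold change of high over low libraries in the Ikbkb set (horizontal) against that in the Irf1 set (vertical), 1 point per list member whose mean log2 CPM was 3 or more, for matrix and fibroblast lists (left panel) and for dendritic, lymphocyte and interferon lists (right panel). Most matrix points lie above 0 on both axes, and most points of the right panel lie below 0 on the Irf1 axis while interferon and T and NK genes lie above 0 on the Ikbkb axis. Without Ikbkb floxed 3, only 11 of 21 T and NK markers tested were above 0 in the Ikbkb set. The same held for 11 of 30 type I interferon-stimulated genes.

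Interferon-stimulated genes, mature DC genes and interferon-gamma-inducible genes stood likewise. All 30 type I interferon-stimulated genes were above 0 in the Ikbkb set, with a median log2 fold change of 0.57, and 1 of 30 in the Irf1 set, with a median of -0.47. Without Ikbkb floxed 3 the Ikbkb count was 11 of 30 with a median of -0.13, and with the genotype block it was 20 of 30 with a median of 0.09. Irf7, which amplifies the type I interferon response, had 119, 140, 253 and 1032 CPM in the high libraries of the Ikbkb set, against 219, 72.2, 263 and 296 CPM in its low ones. Genes of mature DCs, which carry antigen to lymph nodes, were above 0 in 18 of 20 in the Ikbkb set (median 0.47) and 0 of 20 in the Irf1 set (median -0.94). Without Ikbkb floxed 3 they were above 0 in 0 of 20 in the Ikbkb set, with a median of -0.42, and with the genotype block in 14 of 20, with a median of 0.10. Interferon-gamma-inducible genes gave 18 of 20 (median 0.64) in the Ikbkb set and 2 of 20 (median -0.94) in the Irf1 set. Their Ikbkb values were 12 of 20 with a median of 0.21 without Ikbkb floxed 3, a median of 1.07 without Ikbkb-deleted 2, and 17 of 20 with a median of 0.23 with the genotype block. Their sums in the Irf1 set were 1080, 709.6, 822 and 813 CPM in the high libraries and 1762, 1772, 1987 and 628 CPM in the low ones.

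The matrix and fibroblast lists had medians above 0 in both sets, and also without Ikbkb floxed 3. Without that library the pooled medians were 0.56 for fibrillar collagens, 0.58 for other collagens, 0.38 for collagen modification, 0.53 for non-collagen matrix and 0.32 for fibroblast markers. Without the 2 cDC1-rich libraries, an alternative chosen after seeing the data, they were 0.46, 0.54, 0.38, 0.48 and 0.37. With the summed cDC1 level as a covariate, also chosen after seeing the data, they were 0.38, 0.28, 0.21, 0.42 and 0.42. Within the Ikbkb set the medians in the same order were 0.38, 0.41, 0.19, 0.43 and 0.40 with the set as a block. With the genotype block they were 0.47, 0.24, 0.11, 0.34 and 0.27, with 18 of 29 collagen modification genes above 0. All 22 cDC1 markers lay below 0 in the Irf1 set, and their part in the matrix values was not tested beyond these medians.

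**Figure D5:**
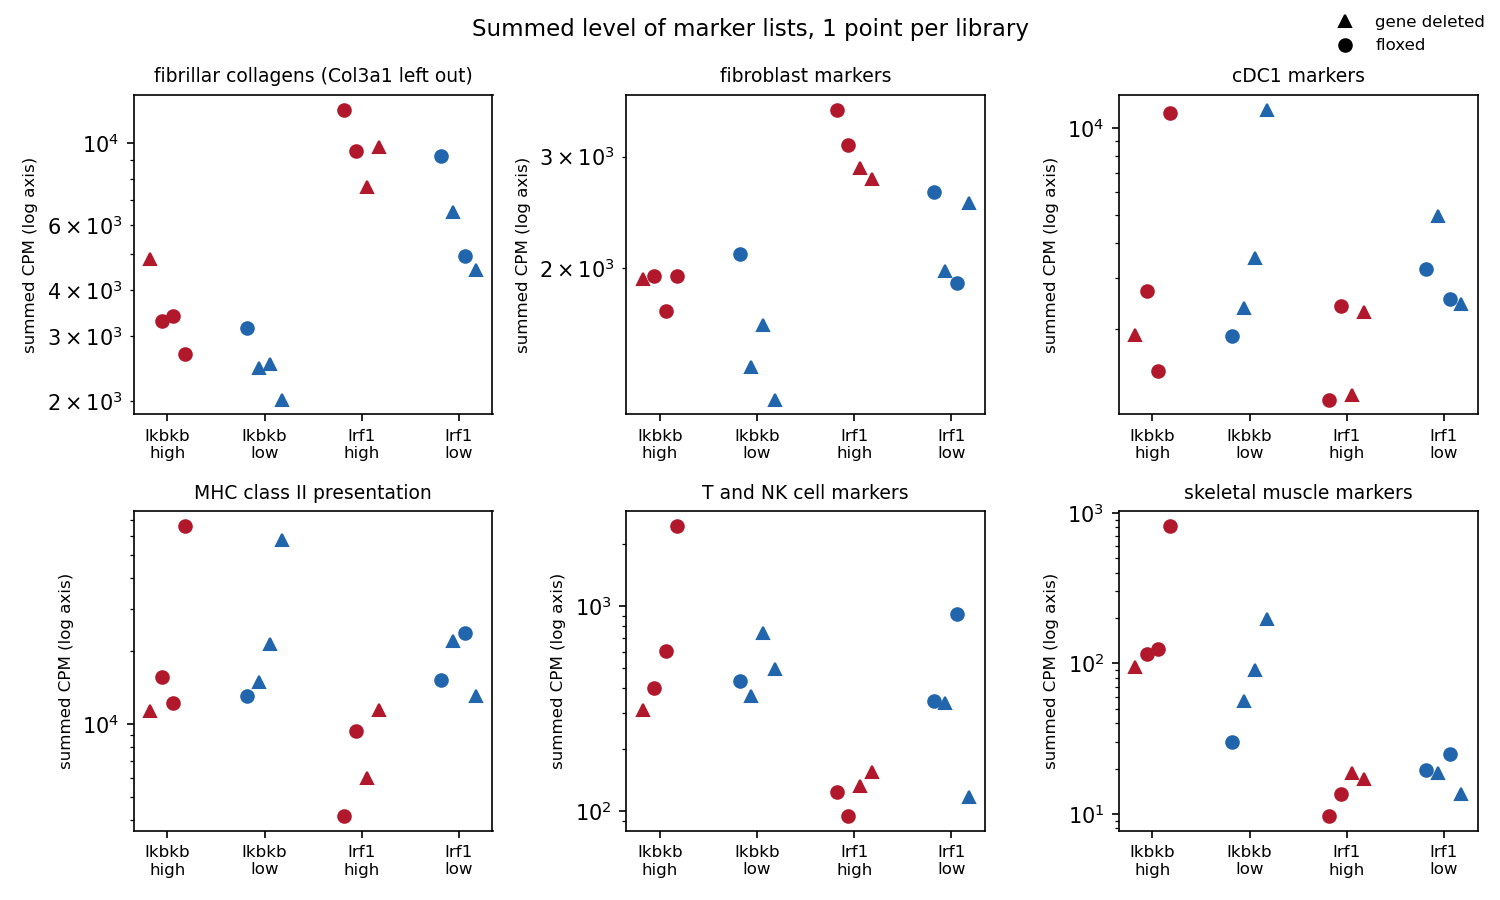
Summed CPM (log axis) of 6 marker lists in each library, 1 point per library, with high libraries in red left of low libraries in blue in each set, triangles for deleted and circles for floxed genotypes. Ikbkb floxed 3 (high) and Ikbkb-deleted 1 (low) are the 2 points near 11300 and 11630 CPM in the cDC1 panel, and in the Irf1 set the high libraries lie below the low ones for cDC1 and MHC class II genes.

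Macrophage and monocyte markers were above 0 in 16 of 21 in the Ikbkb set (median 0.18) and in 5 of 21 in the Irf1 set (median -0.87). The Ikbkb direction turned, with 7 of 21 and a median of -0.07 with the genotype block, 5 of 21 and -0.12 without the 2 cDC1-rich libraries, and a median of -0.13 without Ikbkb-deleted 1. Without Irf1 floxed 4 the Irf1 median was -0.40. Apoe, a lipid carrier abundant in macrophages, had 963, 408, 1887 and 1458 CPM in the high libraries of the Irf1 set and 2096, 2093, 5071 and 476 CPM in the low ones, which overlap widely. Spp1, or osteopontin, averaged 5244 ± 1533 CPM in high and 4413 ± 1171 CPM in low libraries (SD, n = 8 each). Mast cell markers, 6 tested, were above 0 in 4 of 6 in the Ikbkb set (median 0.11) and in 6 of 6 in the Irf1 set (median 0.92). Leaving out 1 library moved the Ikbkb median between -0.30 (without Ikbkb-deleted 4) and 0.73 (without Ikbkb floxed 2), and without Irf1-deleted 4 the Irf1 median was 1.65. Tpsb2, a mast cell tryptase, had 63.5, 66.3, 137 and 77.0 CPM in the high libraries of the Irf1 set and 27.9, 32.8, 18.0 and 80.6 CPM in the low ones. The classes overlapped because of Irf1-deleted 4. Cytosolic ribosomal protein genes had a log2 fold change below 0 in 81 of 84 members, with medians of -0.11 in the Ikbkb set and -0.33 in the Irf1 set, and without Ikbkb floxed 3 the Ikbkb median was 0.04 with 52 of 84 above 0, and without Irf1 floxed 4 the Irf1 median was -0.15. Cell cycle genes had medians of -0.10 in the Ikbkb set and -0.08 in the Irf1 set, and the Irf1 median was 0.03 without Irf1-deleted 4.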

How the data were processed

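Bulk RNA-seq of sorted tumour cDC1s was deposited as raw read counts per gene, 1 column for each of the 16 libraries. Per the labels' protocols, polyadenylated RNA was amplified with SMART-Seq v4 and made into Nextera XT libraries, both with PCR and no molecular identifiers, so counting intervals would cover counting error only. Per the submitters' processing notes, the authors used HTSeq 0.6.1p1, STAR 2.5.3a, cutadapt 1.10 and bcl2fastq 2.17.1.14, named here in no order, with build mm10. The strand setting and annotation release are not given in the sources used here, so overlapping and antisense genes are not resolved.

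Of 32697 rows 16039 passed edgeR's filterByExpr (minimum count 10), Col3a1 aside. Depth ran from 16478671 to 27433818 counts per library. Counts were scaled with TMM and fitted with edgeR 4.0.16 in R 4.3.3 by quasi-likelihood, set as a block and class as the term, with Benjamini-Hochberg adjustment and a threshold of 0.05. Within-set terms and their difference came from a second fit. DESeq2 1.42.0, limma 3.58.1 and further settings were alternatives, and the pooled fit was run on simulated data. The changes planted there were larger than most reported here. That run therefore does not show whether changes of the reported size would be called. All within-group library pairs differed by more than sampling noise. Predicted genes and pseudogenes aside, the rule for named genes took, since none was called, the 5 genes of smallest p in each direction whose mean log2 CPM was 3 or more and whose sign was shared by both sets. It also took the 2 members of highest mean per list, the 5 genes most like Col3a1, the targeted genes and the 2 genes of smallest p between sets. The members, gene lists and tests were chosen with earlier results of these data known. Promoter sequences are RefSeq's, from build GRCm38.p6.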

Additional observations from a re-analysis of the deposited data

Results flagged for a closer look

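Each value below is a single library that stood far from the other 3 of its class and set by Dixon's test at its 95% critical value, which chance passes in about 5% of groups. Of 244 groups tested, 18 did so. Among single genes, Tnks1bp1 had 67.71 CPM in Irf1 floxed 3, where the other high libraries had 50.37 to 51.91. Cd248 had 146.3 CPM and Timp2 had 700.7 CPM in Irf1 floxed 4, where the other low libraries had 295.5 to 310.8 and 1148 to 1167.

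Ikbkb floxed 3, a high library, stood apart in 8 sums over marker lists. Against the other 3 high libraries of its set it had 11300 CPM of cDC1 markers (others 1429 to 2717), 493.1 of cDC2 markers (210.3 to 233.3), 14900 of mature DC genes (2533 to 4278), 66020 of MHC class II genes (11330 to 15710), 29980 of MHC class I genes (11800 to 14010), 2467 of T and NK cell markers (312.4 to 603.6) and 820.1 of skeletal muscle markers (94.31 to 124.2). It also had 6082 CPM of NF-kB pathway and target genes (1703 to 2334). Ikbkb-deleted 1, a low library, had 11630 CPM of cDC1 markers (1890 to 3545) and 183.6 of melanocyte and melanoma markers (52.85 to 70.97). Ikbkb floxed 4 had 1709 CPM of fibroblast markers, under the 1917 to 1941 of the other high libraries.

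In the Irf1 set, Irf1 floxed 1 had 143.6 CPM of cDC2 markers, under the 221.7 to 236.4 of the other high libraries. Irf1-deleted 3 had 1056 CPM of keratinocyte markers (102.1 to 144.2). Irf1 floxed 4 had 275.6 CPM of neutrophil markers (51.14 to 71.96), and Irf1-deleted 4 had 628.4 CPM of interferon-gamma-inducible genes, under the 1762 to 1987 of the other low libraries.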

How the results depend on the processing

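edgeR's 0 calls between high and low libraries became 23 with DESeq2 (20 higher and 3 lower), 1 higher with limma's voom test with quality weights, 3 higher without ranks 4 and 5 of each set, 1 higher with the Col3a1 level as a slope and 1 higher with cDC1 markers as a covariate, which was chosen after seeing the data. Within the Ikbkb set the count was 66 with DESeq2, 1 without ranks 4 and 5, 1 with the slope, 5 without the 2 cDC1-rich libraries (chosen after seeing the data) and 0 to 2 when 1 library was left out, with 1 without Ikbkb-deleted 1 and 2 without Ikbkb floxed 3. Within the Irf1 set it was 42 with DESeq2 and 47 with voom, and for the difference between sets 18 with DESeq2. The cause was not tested. Leaving out any 1 library kept the pooled count at 0. The 3 genes DESeq2 called lower, Gzmf, Gzmg and Gzmd, were at 0 in 6, 9 and 8 libraries. Of those it called higher, Car4, Padi4, Svep1 and Add2 were at 0 in 6, 4, 1 and 5 libraries. Likewise Daam2, Pcdhb8, 9830107B12Rik and D6Ertd527e were at 0 in 7, 5, 8 and 9 libraries, and the rest had reads in every library. The gene that voom called was Pcdhb8.

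Over the named genes' alternatives 1568 kept direction and side of the threshold, 14 passed it and 14 changed sign, all in genes with a log2 fold change near 0. The log2 fold change of Serpinh1 was -0.035 in the Ikbkb set alone. With other settings the log2 fold change of Mgp was 0.0121 with voom and 0.0852 without ranks 4 and 5, and the log2 fold change of Tgfbi was 0.0112 in the Ikbkb set alone and 0.0404 with the covariate. The log2 fold change of Cxcl12 was -0.014 with the slope, -0.0298 in the Ikbkb set alone, -0.133 with the covariate and between -0.0606 (without Irf1 floxed 4) and 0.178 (without Irf1-deleted 4) when 1 library was left out. Of the list medians' alternatives 1693 moved by less than the SD of the log2 fold changes across the list's members and 81 by more. That SD does not measure variation between libraries. Some alternatives could hardly move a value. Ranking by TMM-rescaled CPM moved 0 libraries, and a test against a minimum 1.5-fold change keeps the fold changes. Leaving out a library of the other set hardly touches a within-set value. The counts of 1568 and 1693 include these and overstate how stable the values are. No paired analysis was possible because the labels give no shared replicate numbers.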

Other observations

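Tcf4, a transcription factor of plasmacytoid DCs that fibroblasts also express, had 156, 127, 187 and 127 CPM in the high libraries of the Ikbkb set, against 147, 137, 85.5 and 90.7 CPM in its low ones. Among Irf1 libraries it had 436, 343, 391 and 457 CPM in the high libraries and 388, 281, 298 and 238 CPM in the low ones. The ranges overlapped in both sets. The plasmacytoid DC list as a whole had 5 of 6 members above 0 in each set, with median log2 fold changes of 0.38 in the Ikbkb set and 0.32 in the Irf1 set, and no member was called by edgeR. Without Irf1-deleted 3 the Irf1 count was 2 of 6 with a median of -0.09, without Ikbkb-deleted 1 the Ikbkb median was 0.91, and without Ikbkb floxed 3 the Ikbkb count was 4 of 6 with a median of 0.41.

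Other lists gave medians whose sign turned with 1 library. Neutrophil markers had medians of -0.24 in the Ikbkb set and -0.26 in the Irf1 set, but 0.31 in the Ikbkb set without Ikbkb-deleted 3 and 0.46 in the Irf1 set without Irf1 floxed 4. Retnlg, a neutrophil resistin-like gene, averaged 49.1 ± 37.1 CPM in high and 24.1 ± 31.3 CPM in low libraries (SD, n = 8 each), with its classes overlapping in both sets. Ldha, lactate dehydrogenase, averaged 2494 ± 726 CPM in high and 2635 ± 907 CPM in low libraries (SD, n = 8 each). Fos, an immediate-early gene known to respond to cell handling, averaged 1330 ± 688 CPM in high and 1316 ± 561 CPM in low libraries (SD, n = 8 each).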
